A study of Mus musculus with 4 samples.

Results

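The genes described here encode the initiation and elongation factors of cytoplasmic translation. They were taken by name, as the rows of the deposited tables whose symbol starts with Eif followed by a digit from 1 to 6 or with Eef followed by 1 or 2. This gave 64 of 24319 gene names, 55 initiation factor genes and 9 elongation factor genes. RNA-seq libraries of 2 normal prostates and 2 prostate tumours were compared. The normal prostates came from wild-type F1 males of C57BL/6 and FVB parents, aged 22 weeks. The tumours came from F1 males of the same cross that were heterozygous for the TRAMP transgene, in which the rat probasin promoter drives SV40 T antigen. They are labelled late stage at 24 weeks, and the protocols give 24 to 28 weeks. The probasin promoter is known to be active in prostate epithelium. Which cells of these samples expressed the transgene was not examined. Nothing in the labels states in words that the libraries came from separate mice. The p-values therefore cover only the spread among these samples, which may be technical.

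Initiation begins when eIF2, with GTP and initiator tRNA, joins the small ribosomal subunit together with eIF1, eIF1A, eIF3 and eIF5. The mRNA is brought by eIF4F, made of the cap-binding protein eIF4E, the scaffold eIF4G and the helicase eIF4A. The eIF4E-binding proteins hold eIF4E away from eIF4G until the kinase mTORC1 phosphorylates them, and the eIF2 alpha kinases lower initiation under stress. In elongation, eEF1A brings aminoacyl-tRNA to the ribosome, the eEF1B subunits reload eEF1A with GTP, and eEF2 moves the ribosome along. Normal prostate is a secretory gland, and several of these factors have a paralog whose expression is restricted by tissue.

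All levels below are FPKM (fragments scaled to transcript length and library depth) divided by a factor for each library that sets the median gene equal. A log2 fold change (log2FC) is a difference on log2(scaled FPKM + 1), tumour minus normal, with its standard error (SE), from limma over all genes with p-values adjusted by the Benjamini-Hochberg method. The threshold was an adjusted p of 0.05. Depth implied by the deposited confidence intervals was 986717 and 1580686 fragments in normal 1 and 2, and 1435619 and 1143599 in tumour 1 and 2. Summed markers of several cell types separated the groups, while those of fibroblasts and skeletal muscle overlapped. The part of these cell types in the results was not tested. Summed over 8 luminal epithelium markers, the scaled FPKM were 1739 and 2123 in the normal prostates, 21.3 in tumour 1 and 1077 in tumour 2. Over 9 neuroendocrine and neuronal markers they were 0.408 and 2.02 against 686 and 903, and over 6 smooth muscle markers 582 and 542 against 4.19 and 105. The sums were 8.24 and 6.22 against 655 and 365 over 4 proliferation genes, of which all 4 rose, and 123 and 99.0 against 50.4 and 376 over 6 fibroblast markers. Over 7 leukocyte markers they were 8.05 and 4.49 against 96.6 and 219, in the tumours mostly from Lyz2. Of the luminal markers, 4 were listed at 0 in tumour 1. Of the neuroendocrine and neuronal markers, 8 were listed at 0 in normal 1 and 5 in normal 2. In bulk tissue, fewer cells of a type and less RNA per cell cannot be told apart.

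Eef1a2, which had the largest log2 fold change of the 63 members tested, is with Eef1a1 one of the 2 genes of eEF1A. Eef1a1 (chromosome 9, 78478454 to 78481724) is used in most cells, and Eef1a2 (chromosome 2, 181147692 to 181157015) is known as the form of neurons and muscle. Their coding sequences were compared to show how far reads can tell them apart. Over 1389 aligned columns they were identical in 79.9%, and the longest run they shared was 23 bases. The first 120 coding bases, from GENCODE M21 transcripts on GRCm38, follow, with capitals where the 2 genes differ (18 positions).
Eef1a1: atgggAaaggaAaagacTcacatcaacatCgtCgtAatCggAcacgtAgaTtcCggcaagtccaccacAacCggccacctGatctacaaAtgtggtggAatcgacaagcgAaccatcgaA
Eef1a2: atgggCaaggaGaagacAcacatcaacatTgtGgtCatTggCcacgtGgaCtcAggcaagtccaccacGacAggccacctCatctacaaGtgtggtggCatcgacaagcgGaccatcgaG
Eif5a and Eif5a2 form a second such pair, with 72.3% identity and a longest shared run of 14 bases. Their first 120 coding bases differ at 30 positions, in capitals below.
Eif5a: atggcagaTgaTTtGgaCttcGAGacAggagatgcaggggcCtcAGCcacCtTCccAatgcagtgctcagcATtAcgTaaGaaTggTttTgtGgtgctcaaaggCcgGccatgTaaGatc
Eif5a2: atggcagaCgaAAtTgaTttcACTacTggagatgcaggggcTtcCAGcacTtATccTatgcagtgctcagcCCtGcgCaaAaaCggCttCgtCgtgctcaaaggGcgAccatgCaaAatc

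The promoters of the eEF1A pair also differ in composition. The 250 bases before the annotated start, from RefSeq on GRCm38.p6, hold 68.0% G and C for Eef1a1 (chr9:78481725-78481974, minus strand) and 54.0% for Eef1a2 (chr2:181157016-181157265, minus strand).
Eef1a1: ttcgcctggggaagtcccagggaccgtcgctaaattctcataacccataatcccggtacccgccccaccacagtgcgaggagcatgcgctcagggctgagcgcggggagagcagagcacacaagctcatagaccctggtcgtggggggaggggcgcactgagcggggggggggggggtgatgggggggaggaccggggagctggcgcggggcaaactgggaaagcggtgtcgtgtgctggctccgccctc
Eef1a2: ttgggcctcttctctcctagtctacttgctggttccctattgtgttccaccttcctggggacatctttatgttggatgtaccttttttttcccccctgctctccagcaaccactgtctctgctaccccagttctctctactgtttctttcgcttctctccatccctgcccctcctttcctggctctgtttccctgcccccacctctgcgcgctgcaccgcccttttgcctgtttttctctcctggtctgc
Promoters of 250 bases before and 50 bases from the start were matched for 50 of the 64 genes and searched for CACGTG, which reads the same on both strands. At least 1 promoter held it in 12 of the 50 genes (24.0%), against 1170 of 9935 tested genes with a promoter (11.8%). CACGTG is the E-box that MYC with MAX is known to bind. Of the 12 genes 1 rose and 1 fell in the tumours, with a median log2 fold change of -0.16. Of the 38 without it 1 rose and 0 fell, with a median of -0.23. Beside them 9.85% of all genes tested rose and 8.27% fell, with a median of 0.07. The genes that rose, Eif5a2 and Eef1a2, passed the filter on low values through the tumours alone and so had to differ. No promoter was matched for 5 of the 8 members past the threshold, 4 of them among the 5 that fell (Eef1d, Eif3i, Eif4ebp1 and Eif4ebp3) and Eif4e3, so these counts leave them out. The 2 with the motif that passed were Eif5a2 and Eif3f. Their matches are shown with that of Eif4a1, the main eIF4A helicase gene, with the motif in capitals.
Eif5a2 (chr3:28781118-28781157, plus strand): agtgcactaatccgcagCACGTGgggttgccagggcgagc
Eif3f (chr7:108934330-108934369, plus strand): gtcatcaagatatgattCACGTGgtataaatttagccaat
Eif4a1 (chr11:69672590-69672629, minus strand): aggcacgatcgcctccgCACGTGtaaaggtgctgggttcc
Many mRNAs of the translation machinery start with a C and a run of pyrimidines, the terminal oligopyrimidine tract through which mTORC1 is known to control them. A C at the annotated start followed by at least 4 pyrimidines was found in 2 of the 50 genes (4.0%) and in 310 of the 9935 (3.12%). The 2 were Eif3f and the X-linked eIF2 gamma gene Eif2s3x, shown with 20 bases on each side of the start and the tract in capitals.
Eif3f (chr7:108934395-108934434, plus strand): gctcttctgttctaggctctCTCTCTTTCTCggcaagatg
Eif2s3x (chrX:94212632-94212671, minus strand): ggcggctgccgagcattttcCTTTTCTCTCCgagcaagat
Annotated starts can lie away from the starts used in prostate.

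Between normal prostate and tumour 12.7% of the tested members passed the threshold, beside 18.1% of all genes tested. The order of these shares was not the same under every setting, and with FPKM as deposited they were 34.9% and 31.2%. With limma, 3 of 63 tested members rose (4.76%, against 9.85% of 13162 genes tested), 5 fell (7.94%, against 8.27%) and 55 did not pass. Eef1a2, Eif4e3 and Eif5a2 rose. Of these, Eef1a2 and Eif5a2 passed the filter on low values through the tumours alone and so had to differ. Eif4ebp1, Eif4ebp3, Eef1d, Eif3f and Eif3i fell. At an unadjusted p under 0.05 there were 8 higher and 16 lower members of the 63, beside 21.5% higher and 18.3% lower of all genes. The median log2 fold change of the members was -0.22, beside 0.07 over all genes tested. The groups did not overlap in 44 members, 17 with both tumours above and 27 with both below (69.8%, against 71.1% of all genes, 37.7% above and 33.3% below). The 64th member, Eif4e1b, the cap-binding form of the oocyte, was listed at 0 in all 4 libraries and was not tested. As a class these genes were well expressed, and 58 of the 63 lay at or above the median level of all genes tested.

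**Figure D1:**
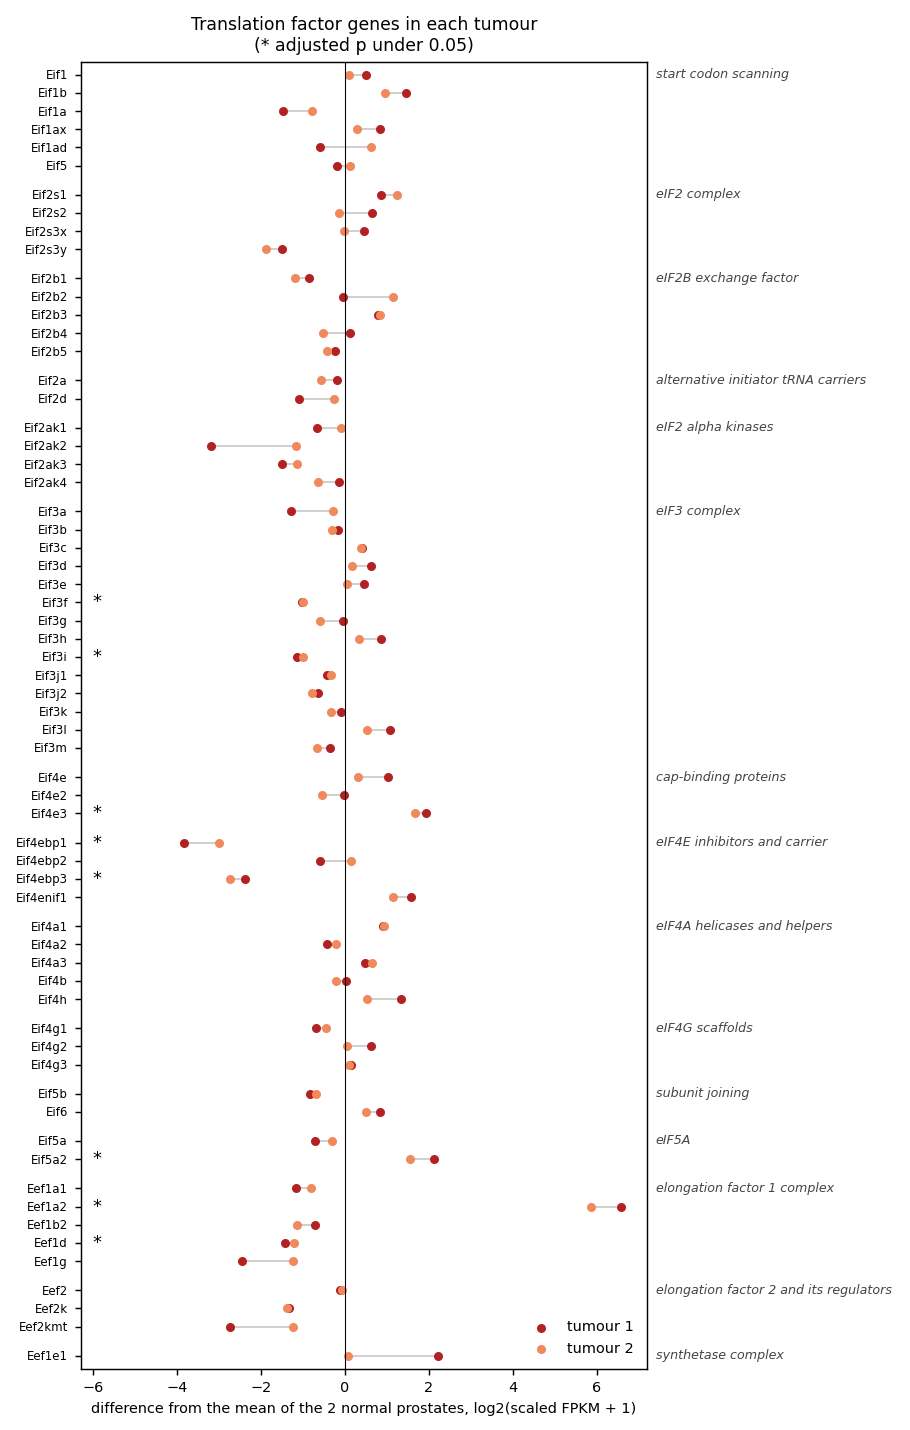
Difference of each tumour from the mean of the 2 normal prostates for the 63 tested genes, on log2(scaled FPKM + 1), grouped by role. Each dot is 1 tumour and stars mark the 8 genes past the threshold; most genes lie within a log2 difference of 2 on either side of 0, and Eef1a2 and Eif4ebp1 stand farthest out.

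The sign of the log2FC depended on how the libraries were scaled in 23 of the 63 members, which differed in sign between scaled FPKM and FPKM as deposited. Median-of-ratios factors were 0.793 in normal 1, 0.689 in normal 2, 1.34 in tumour 1 and 1.5 in tumour 2, which moves the groups against each other by 0.94 in log2 units. As a share of all deposited FPKM the members made up 0.878% and 0.912% in normal prostate and 1.93% and 2.04% in the tumours. With FPKM as deposited, 20 members rose (31.7%, against 28.0% of all genes) and 2 fell (3.17%, against 3.24%), and their median was 0.70 beside 0.86 over all genes. Member median minus the median of all genes was -0.29 with scaling and -0.17 without it, but 0.25 under quantile normalization and 0.0052 with scaling when tumour 2 was left out. Of the 8 genes that passed, Eef1a2, Eif4e3, Eif5a2, Eif4ebp1 and Eif4ebp3 also passed with FPKM as deposited, in the same direction. Eef1d, Eif3f and Eif3i did not. By voom, limma's model for counts, on the implied fragments 2 members rose (8.02% of all genes did) and 7 fell (7.64%). With FPKM of at least 1 required in all 4 libraries, 3 rose (6.20% of all genes) and 9 fell (11.6%). Without normal 1 or without normal 2, 0 members and 0 genes passed in limma, with 2 higher and 6 lower members at an unadjusted p under 0.05 in each. Of all genes 10.5% were higher and 8.61% lower at that p without normal 1, and 10.5% and 7.83% without normal 2. Without tumour 1, 7 of 61 members rose and 14 fell (31.5% of all genes in either direction), and without tumour 2, 12 of 60 rose and 18 fell (50.5%). Shares within a pair or a complex, given below, do not depend on this scaling. They are given as a description with no test. For 2 against 2 libraries the smallest two-sided p of the exact permutation test is 0.333.

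**Figure D2:**
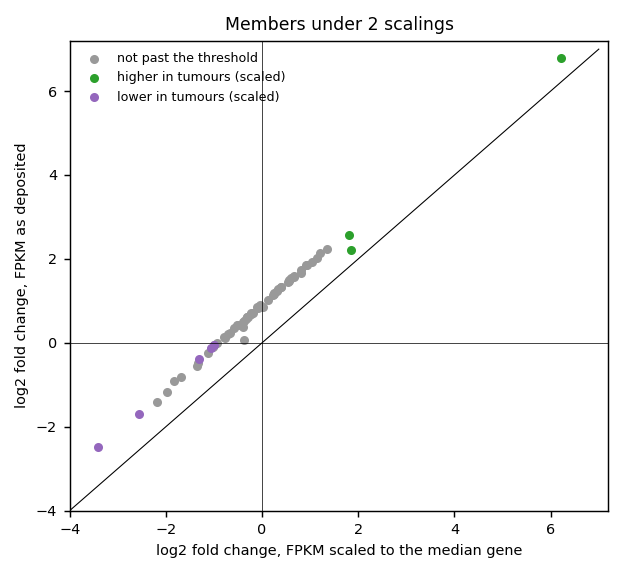
Log2 fold change of each of the 63 members with FPKM scaled to the median gene (x axis) and with FPKM as deposited (y axis), with the line of equality. The points lie above the line by about the 0.94 shift between the groups, less so for the genes of low level, and the genes of the 2 called inhibitors, Eif4ebp1 and Eif4ebp3, stay negative on both axes.

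The cap-binding arm held the clearest falls. Eif4ebp1, an inhibitor of eIF4E (chromosome 8, 27260327 to 27275656), was at 309 and 282 in the normal prostates and at 19.6 and 36.2 in the tumours. Both tumours lay far below both normal prostates. The fall was 3.42 on the log2 scale (log2FC -3.42, SE 0.36, adjusted p = 0.0195), from ranks 236 and 260 among all genes to 3305 and 1626. Eif4ebp3, another member of the inhibitor family, was at 37.3 and 35.2 in the normal prostates and at 6.09 and 4.61 in the tumours (log2FC -2.56, SE 0.33, adjusted p = 0.0216). Its tumour values rested on 14.0 and 9.0 implied fragments, and it overlaps a further annotated coding gene on the same strand. Eif4ebp2, the third inhibitor and the form known from the brain, was at 30.0 and 29.4 against 19.3 and 33.1, and the groups overlapped (adjusted p = 0.677). Its log2 fold change of -0.22 turned to 0.69 with FPKM as deposited. The makeup of the inhibitors was not the same in the groups. Of the FPKM of Eif4ebp1 and Eif4ebp2 together, Eif4ebp2 held 8.85% and 9.46% in normal prostate and 49.6% and 47.8% in the tumours.

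Eif4e itself, the cap-binding protein, was at 13.6 and 20.5 in the normal prostates and at 34.8 and 20.9 in the tumours (log2FC 0.66, SE 0.41, adjusted p = 0.279). Tumour 2 lay barely above normal 2. Per FPKM of Eif4e there were 22.8 and 13.8 FPKM of Eif4ebp1 in normal prostate, but 0.563 and 1.73 in the tumours. These are ratios of transcript levels, and neither protein nor phosphorylation was measured. Eif4e3, a cap-binding paralog with a weaker grip on the cap (chromosome 6, 99625137 to 99666771), was at 1.81 and 3.0 in the normal prostates and at 11.8 and 9.68 in the tumours. It rose 3.48-fold on this scale (log2FC 1.80, SE 0.42, adjusted p = 0.0489). The normal values rested on 3.2 and 11 implied fragments, and voom did not call it (adjusted p = 0.0750). The call was also lost under quantile normalization (0.0660), with a pseudocount of 0.1 and without the filter on low values. Eif4e2, a paralog tied to translational repression, was at 26.4 and 24.9 against 25.3 and 17.1 (adjusted p = 0.552). Eif4enif1, the 4E-T protein that carries eIF4E into the nucleus and into P-bodies, was at 11.9 and 10.1 in the normal prostates and at 34.6 and 25.3 in the tumours. The groups did not overlap, but its log2 fold change of 1.35 (SE 0.33, adjusted p = 0.0531) did not pass. It passed with FPKM as deposited (2.24, adjusted p = 0.020).

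**Figure D3:**
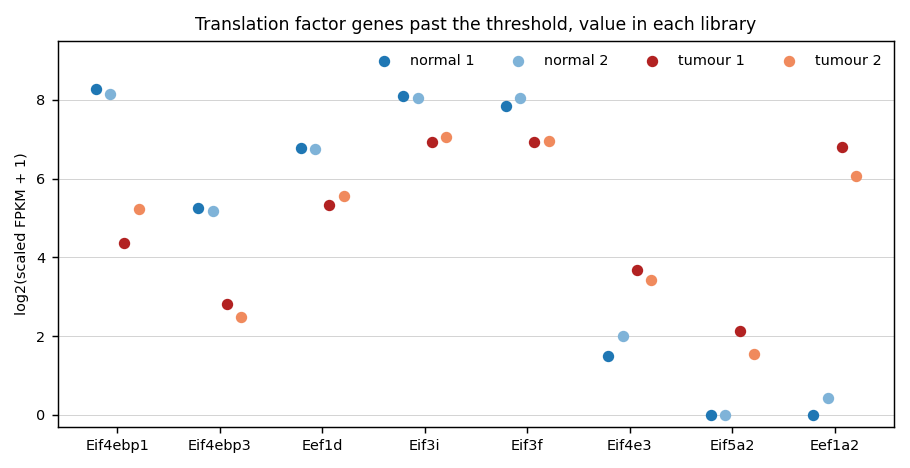
Level of the 8 genes past the threshold in each of the 4 libraries, as log2(scaled FPKM + 1), from the largest fall on the left to the largest rise on the right. In all 8 genes both tumours lie on the same side of both normal prostates, and Eif5a2 is listed at 0 in both normal libraries.

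Of the eIF4A helicase pair the main form held the larger share in every library, and more of it in the tumours. Eif4a1 was at 225 and 201 in the normal prostates and at 396 and 405 in the tumours, so both tumours were higher, but the log2 fold change of 0.91 (SE 0.22, adjusted p = 0.0525) did not pass. It was 1.85 (adjusted p = 0.0188) with FPKM as deposited, 1.64 (adjusted p = 0.0289) under quantile normalization and 0.46 (adjusted p = 0.195) by voom. Eif4a2, which is linked to microRNA repression, was at 136 and 131 against 98.9 and 116 (log2FC -0.32, adjusted p = 0.358; 0.61 as deposited). Eif4a2 held 37.8% and 39.6% of the pair in normal prostate and 19.98% and 22.2% in the tumours. Small nucleolar RNA genes lie within both genes, and exons of Eif4a2 overlap Rfc4 on the opposite strand. Eif4a3, a helicase of the exon junction complex, was at 73.1 and 67.2 against 97.8 and 111 (adjusted p = 0.155). Eif4h and Eif4b, which stimulate eIF4A, did not pass either. Eif4h was at 68.6 and 69.1 against 174 and 100.1, with tumour 1 well above tumour 2. Eif4b was at 76.2 and 89.1 against 83.4 and 71.2 and the groups overlapped. Of the scaffolds, Eif4g1 was at 47.1 and 53.3 against 30.6 and 36.2 (log2FC -0.58, adjusted p = 0.182; 0.34 as deposited). Eif4g2, a scaffold that lacks the eIF4E site, and Eif4g3 had adjusted p of 0.422 and 0.801. Eif4g3 held 36.5% and 25.5% of its pair with Eif4g1 in normal prostate and 44.7% and 39.8% in the tumours.

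**Figure D4:**
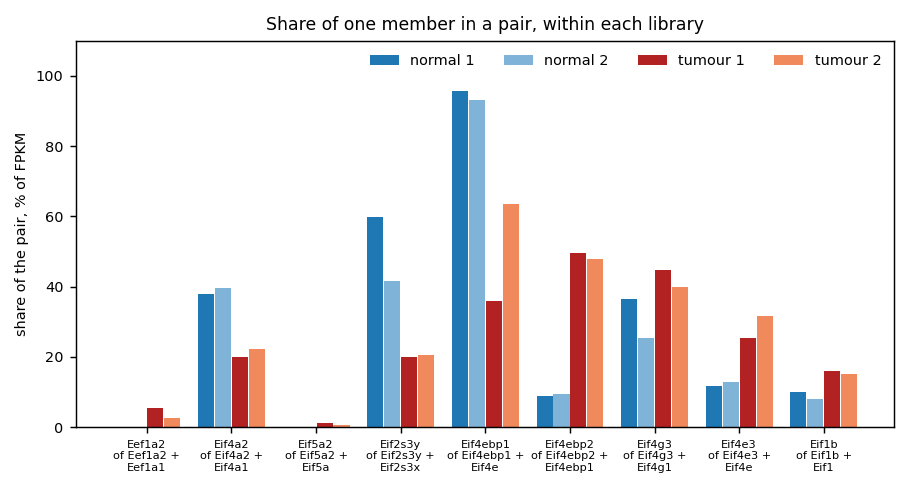
Share of the first-named gene in the summed FPKM of a pair, in percent, for 9 pairs of members in each library. The Eif4a2 share is lower in both tumours, the Eif4ebp2 share is 8.85% and 9.46% in normal prostate and 49.6% and 47.8% in the tumours, and the Eef1a2 share reaches 5.30% in tumour 1.

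eIF3, the largest initiation factor, has subunits that serve as a platform on the small ribosomal subunit. Of its 14 genes 2 fell, 0 rose and 12 did not pass, with a median log2 fold change of -0.28, beside 8.27% lower and 9.85% higher of all genes. Taken as deposited, FPKM gave 5 higher and 0 lower subunit genes and a median of 0.66, beside 28.0% higher and 3.24% lower of all genes. Eif3i (chromosome 4, 129591974 to 129600648) was at 273 and 265 in the normal prostates and at 122 and 133 in the tumours (log2FC -1.07, SE 0.23, adjusted p = 0.0403). Eif3f, another subunit gene (chromosome 7, 108934415 to 108941942), had 227 and 265 against 121 and 123 (log2FC -1.0, SE 0.23, adjusted p = 0.0477). Both calls were lost with FPKM as deposited, where the log2 fold changes were -0.14 and -0.06, and under quantile normalization (-0.48 and -0.43). In the other direction, Eif3h was at 109.8 and 158 against 240.3 and 166, and Eif3l at 36.3 and 49.6 against 91.1 and 61.4, and neither passed (adjusted p = 0.230 and 0.145). Eif3e, the subunit at the mouse mammary tumour virus site Int6, was at 70.2 and 75.3 against 99.8 and 74.6, and the groups overlapped (adjusted p = 0.537).

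The share of each subunit in the summed eIF3 FPKM of a library does not depend on scaling. Eif3f held 15.5% and 15.8% in normal prostate and 8.57% and 10.4% in the tumours. Eif3i held 18.6% and 15.8% against 8.62% and 11.2%. Eif3h held 7.49% and 9.43% against 17.03% and 14.0%, and Eif3l held 2.48% and 2.96% against 6.46% and 5.18%. In all, 5 subunit shares were higher in both tumours (Eif3c, Eif3d, Eif3e, Eif3h and Eif3l), 4 were lower (Eif3f, Eif3i, Eif3j2 and Eif3m) and 5 overlapped. No share of this kind was computed over all genes, whose levels, a different quantity, did not overlap in 71.1%. Shares of a whole are not independent of each other. The deposited tables place Eif3j1 and Eif3j2 at nearly the same position on chromosome 2, and Eif3j1 rested on 1.3 to 1.4 implied fragments in each library, so the split between them is uncertain.

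**Figure D5:**
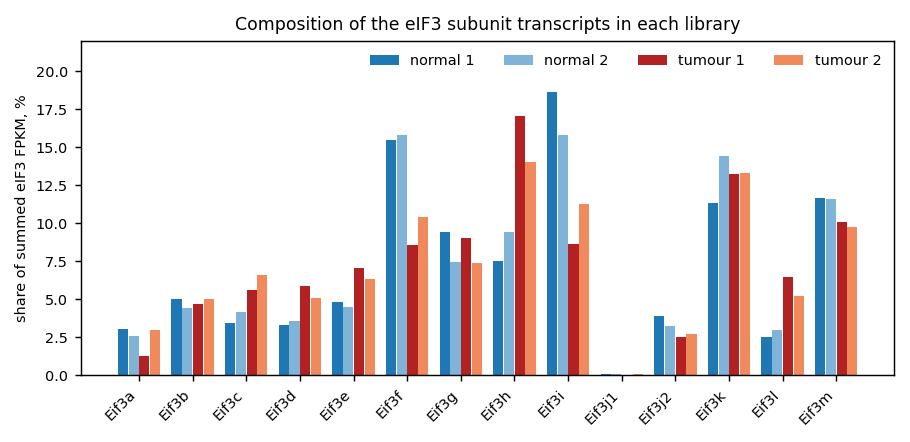
Share of each of the 14 eIF3 subunit genes in the summed eIF3 FPKM of a library, in percent. Both tumours have smaller shares of Eif3f and Eif3i than either normal prostate, and larger shares of Eif3h and Eif3l.

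None of the 15 genes of eIF2, its exchange factor, its kinases and the alternative tRNA carriers passed the threshold in limma. Of all genes 18.1% did. At an unadjusted p under 0.05 there were 1 higher and 4 lower, beside 21.5% and 18.3% of all genes. By voom 0 of the 15 passed too, beside 8.02% higher and 7.64% lower of all genes. With FPKM as deposited Eif2s1, Eif2b3 and Eif2s3x passed, all higher (adjusted p = 0.0248, 0.0383 and 0.0423), beside 28.0% higher of all genes. The alpha subunit gene Eif2s1, which carries the phosphorylated serine, was at 10.9 and 11.8 in the normal prostates and at 21.3 and 27.8 in the tumours (log2FC 1.04, SE 0.33, adjusted p = 0.0835). Both tumours were higher, and with FPKM as deposited it passed (1.93, adjusted p = 0.0248). Eif2s2, the beta subunit, was at 43.1 and 52.4 against 74.5 and 42.9 (adjusted p = 0.640). The gamma subunit has an X-linked and a Y-linked gene in the mouse, with 86.3% identity over their coding sequence. Eif2s3x was at 29.0 and 31.8 against 42.1 and 30.1 (adjusted p = 0.621). Eif2s3y was at 43.3 and 22.7 against 10.5 and 7.75, with both tumours below (log2FC -1.69, SE 0.44, adjusted p = 0.0576). Eif2s3y held 59.9% and 41.6% of the pair in normal prostate and 20.01% and 20.5% in the tumours. The Y-linked gene was thus detected in all 4 libraries. The protocols describe males in both groups. Of the eIF2B subunits, which reload eIF2 with GTP, Eif2b1 was at 42.9 and 48.3 against 24.7 and 19.3 (adjusted p = 0.0701), and the other 4 had adjusted p from 0.168 to 0.691.

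All 4 eIF2 alpha kinase genes had negative fold changes with scaling, and 3 of the 4 had both tumours below both normal prostates, as had 33.3% of all genes. With FPKM as deposited Eif2ak1 and Eif2ak4 were positive, at 0.51 and 0.37, and Eif2ak2 was at -1.41. Eif2ak3, the kinase PERK of the endoplasmic reticulum, was at 15.8 and 13.7 in the normal prostates and at 4.52 and 6.11 in the tumours (log2FC -1.33, SE 0.37, adjusted p = 0.0678; -0.48 as deposited). Eif2ak2, the kinase PKR that senses double-stranded RNA, was at 15.6 and 15.4 against 0.802 and 6.37 (log2FC -2.18, SE 0.75, adjusted p = 0.1004). The tumours differed from each other by more than the normal prostates did, and the value of tumour 1 rested on 8.0 implied fragments. Eif2ak4, the amino acid sensor GCN2, was at 5.34 and 4.91 against 4.57 and 2.89, and Eif2ak1, the heme-regulated kinase, overlapped. As a share of the 4 kinases, Eif2ak1 held 31.0% and 39.8% in normal prostate and 54.5% and 53.7% in the tumours.

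Factors of start codon choice and of subunit joining gave no call in limma. Of 6 scanning factors 0 rose and 0 fell, beside 9.85% and 8.27% of all genes. At an unadjusted p under 0.05 there were 1 higher and 1 lower, beside 21.5% and 18.3%. By voom 0 passed, beside 8.02% higher and 7.64% lower of all genes. With FPKM as deposited Eif1 and Eif1b rose (adjusted p = 0.0261 and 0.0183), as did 28.0% of all genes. Eif1, which guards start codon choice, was at 415 and 474 against 631 and 473. Its close paralog Eif1b was at 45.6 and 40.5 against 119.5 and 84.6, with both tumours higher (log2FC 1.21, SE 0.29, adjusted p = 0.0514). It passed under quantile normalization as well (1.63, adjusted p = 0.0370), but not by voom (adjusted p = 0.0834). Eif1b held 9.90% and 7.88% of the pair in normal prostate and 15.9% and 15.2% in the tumours. Eif1a was at 32.0 and 28.5 against 10.1 and 17.3 (adjusted p = 0.0924), while Eif1ax, its X-linked counterpart, ranged from 27.8 to 70.7 with overlapping groups. Eif5, which triggers GTP hydrolysis on eIF2, was at 51.1 and 54.0 against 46.1 and 57.1 (adjusted p = 0.935). Eif5b, which joins the ribosomal subunits, was at 12.9 and 16.6 against 7.75 and 8.77 (adjusted p = 0.175). Eif6, which keeps the large subunit from joining early, was at 33.1 and 46.8 against 70.6 and 56.6 (log2FC 0.67, SE 0.31, adjusted p = 0.176). Eif6 passed with FPKM as deposited (1.59, adjusted p = 0.0230).

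eIF5A carries the amino acid hypusine and helps the ribosome through difficult stretches. Eif5a was abundant in every library, at 485 and 518 in the normal prostates and at 303 and 405 in the tumours (log2FC -0.52, SE 0.26, adjusted p = 0.197; 0.42 as deposited). Eif5a2 (chromosome 3, 28781311 to 28798846) had no FPKM in either normal library, and 3.36 and 1.93 in tumour 1 and tumour 2, on 38.9 and 18.9 implied fragments (adjusted p = 0.0393). It passed the filter on low values through the tumours alone, and its call was lost under quantile normalization (adjusted p = 0.141) and without that filter. Even in the tumours Eif5a2 held 1.10% and 0.474% of the pair.

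Elongation factor genes included the largest rise of the family. Eef1a2 was listed at 0 in normal 1, lay at 0.342 in normal 2 on 1.0 implied fragment, and reached 109.8 and 66.6 in the tumours on 484.9 and 244.9 fragments. The log2 fold change reached 6.22 (SE 0.44, adjusted p = 0.0195), on a scale that understates change from low levels, and it too passed the filter through the tumours alone. The rank of Eef1a2 among all genes moved from 13436 and 12863 to 480 and 791. Eef1a1, the highest member in every library, was at 4006 and 4853 in the normal prostates and at 1961 and 2504 in the tumours. Both tumours were lower, but the log2 fold change of -0.99 (SE 0.27, adjusted p = 0.0651) did not pass and was -0.05 with FPKM as deposited. It passed by voom (-1.03, adjusted p = 0.0309). Under quantile normalization it was 2.14, since Eef1a1 ranked 7 and 2 in the tumours against 19 and 15 in the normal prostates. Eef1a2 held 0.00704% of the pair in normal 2, 5.30% in tumour 1 and 2.59% in tumour 2. The 9 neuroendocrine and neuronal markers moved with Eef1a2, and all 9 rose. Summed over 8 skeletal muscle markers the scaled FPKM were 48.2 and 42.9 in normal prostate and 46.9 and 40.3 in the tumours. Single genes moved in opposite directions within this sum, and of the 4 tested 2 had positive and 2 negative fold changes. Acta1 was at 38.9 and 39.4 in the normal prostates and at 4.20 and 17.9 in the tumours (log2FC -2.02, adjusted p = 0.0922). Of the 4 muscle markers tested 1 rose, Myl1, at 1.51 and 0 against 39.6 and 9.48 (adjusted p = 0.0472). Mb, myoglobin, was listed at 0 in all but tumour 2. The part of neuroendocrine cells or muscle in the rise was not tested.

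Of the 3 genes of the eEF1 exchange subunits 1 fell, Eef1d, beside 8.27% lower of all genes. Eef1d, the delta subunit (chromosome 15, 75894796 to 75909556), was at 108.8 and 107.1 in the normal prostates and at 39.2 and 46.3 in the tumours (log2FC -1.32, SE 0.25, adjusted p = 0.0342). With FPKM as deposited the call was lost (-0.39, adjusted p = 0.314), as it was under quantile normalization, by voom (adjusted p = 0.0510), and when the intensity trend or the filter on low values was dropped. Eef1d overlaps Naprt on the same strand. Eef1g, the gamma subunit, was at 486 and 514 against 90.9 and 212 (log2FC -1.84, SE 0.45, adjusted p = 0.0514). It passed by voom (-1.91, adjusted p = 0.0409) but not with FPKM as deposited (-0.90, adjusted p = 0.218). Eef1b2, the beta subunit, was at 333 and 352 against 207 and 154 (log2FC -0.93, SE 0.26, adjusted p = 0.0656). Eef1b2 overlaps Ndufs1 on the opposite strand. Within the complex Eef1g held 9.85% and 8.83% of the FPKM in normal prostate and 3.78% and 7.10% in the tumours, and Eef1d held 2.21% and 1.84% against 1.63% and 1.55%. Eef1b2 held 6.74% and 6.04% against 8.60% and 5.16%, and its groups overlapped. Eef1e1, a scaffold protein of the tRNA synthetase complex, was at 6.67 and 12.8 against 46.9 and 9.87, so tumour 1 alone stood high (adjusted p = 0.331).

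Eef2, the translocase, was at 648 and 868 in the normal prostates and at 691 and 709 in the tumours, with overlapping groups (log2FC -0.10, SE 0.26, adjusted p = 0.795; 0.84 as deposited). Eef2k, the kinase that inhibits eEF2, was at 9.68 and 11.3 against 3.56 and 3.4, with both tumours lower (log2FC -1.36, SE 0.38, adjusted p = 0.0673). It passed by voom (-1.61, adjusted p = 0.0430). Eef2kmt, which methylates eEF2, was at 17.8 and 16.7 against 1.73 and 6.77 (adjusted p = 0.0783) and overlaps Alg1 on the opposite strand.

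Genes that act on these factors were counted from 6 lists. Of 14 genes of mTORC1 signalling 2 fell, 0 rose and 12 did not pass, beside 8.27% lower and 9.85% higher of all genes. With FPKM as deposited 3 rose, Rptor, Tsc1 and Ddit4, and 0 fell, beside 28.0% and 3.24% of all genes. Tsc2, a brake on mTORC1, was at 45.9 and 51.9 in the normal prostates and at 17.3 and 12.3 in the tumours (log2FC -1.68, SE 0.32, adjusted p = 0.0341). Rps6kb2, an S6 kinase, was at 15.9 and 11.2 against 2.56 and 3.39 (log2FC -1.86, SE 0.41, adjusted p = 0.0439), on 8.0 and 9.0 implied fragments in the tumours. The calls of Tsc2 and Rps6kb2 were lost with FPKM as deposited (-0.77 and -1.07) and without the filter on low values. Both were also lost with the sum of FPKM, after removing genes above 1%, as the scale (adjusted p = 0.0684 and 0.0791). The Rps6kb2 call was lost by voom (adjusted p = 0.0868) and with a pseudocount of 0.1 as well. Mtor itself was at 7.43 and 7.59 against 7.88 and 7.82 (adjusted p = 0.919), and Pdcd4, an inhibitor of eIF4A, was at 65.4 and 63.4 against 4.68 and 20.6 (adjusted p = 0.0602). Of 6 termination and recycling genes 1 fell, beside 8.27% of all genes. All 6 had negative fold changes with scaling, but with FPKM as deposited Gspt1, Gspt2, Abce1 and Mcts1 were positive, at 0.75, 0.40, 0.41 and 0.12, and the median of the list was 0.26. The gene that fell was Etf1, the release factor, at 49.7 and 48.9 against 18.0 and 20.7 (log2FC -1.31, SE 0.27, adjusted p = 0.0402; -0.40 as deposited, where the call was lost).

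The other 4 lists held no call in limma, beside 9.85% higher and 8.27% lower of all genes. At an unadjusted p under 0.05 the shares of all genes were 21.5% and 18.3%. Of 9 integrated stress response genes 0 passed, with 1 higher and 0 lower at an unadjusted p under 0.05 and a median of -0.03. Atf4, the factor made when eIF2 is phosphorylated, was at 154 and 127 against 199.8 and 99.4 (adjusted p = 0.986). Ddit3, a stress target of Atf4, was at 37.5 and 26.9 against 39.5 and 12.5, and Atf5 at 15.2 and 11.1 against 128 and 29.8 (adjusted p = 0.0960). With FPKM as deposited Atf5 passed (3.07, adjusted p = 0.0381), and no other gene of these 4 lists did, beside 28.0% higher and 3.24% lower of all genes. Of 8 hypusine and diphthamide enzymes 0 passed, with 0 higher and 1 lower at an unadjusted p under 0.05. That gene was Dhps, which starts the making of hypusine, at 15.2 and 13.4 against 6.21 and 3.44 (adjusted p = 0.0741). The 5 poly(A) binding genes and the 10 mitochondrial translation factors gave 0 calls and 0 at an unadjusted p under 0.05, with medians of -0.41 and 0.02. By voom 0 genes of these 4 lists passed, beside 8.02% higher and 7.64% lower of all genes.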

How the data were processed

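RNA was extracted with TRI Reagent from frozen prostate and tumour tissue and sequenced on an Illumina NextSeq 500 from TruSeq V2 libraries, per the labels' protocols. The authors deposited FPKM values per gene with Cufflinks confidence bounds, per the file headers. Per the submitters' processing notes, the build was GRCm38 and the tools were Cufflinks 2.1.1 and Cuffdiff 2.1.1 after TopHat2 2.0.8 and Trim Galore. The sources used here do not give the annotation, the strand use or any scaling. The deposited tables hold no counts. Fragments were estimated from each interval's upper bound, with 2 SD of a Poisson count as its width; 71.0 to 72.5% of rows with 0.9 to 20 fragments and 1 start group lay within 0.1 of a whole number (20% by chance). They understate counts where isoform assignment widens the interval.

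Here, 27 rows with date-like names were dropped and FPKM were summed by name. Scaling used median-of-ratios factors from 11469 genes above 0 in all 4 libraries. Genes with FPKM of at least 1 in at least 2 libraries were tested on log2(scaled FPKM + 1) with limma 3.58.1 in R 4.3.3, with an intensity trend, two-sided, 2 residual and 2.85 prior degrees of freedom. The fit was tested on simulated data. Other steps used Python 3.11.15, pandas 2.3.3, numpy 2.4.6, Biopython 1.88 and matplotlib 3.10.9. Named genes were all members and pathway genes past the threshold and 23 members fixed by name; the other members are given for completeness. Mtor, Pdcd4, Atf4, Atf5, Ddit3, Dhps, Myl1, Acta1 and Mb were chosen after their values were seen. The members and lists were chosen with earlier results of these data known. Coding identity used the longest complete coding sequence of each gene in GENCODE M21. Of the 64 members, 15 share exon sequence with another gene of the deposited tables, 11 of them on the opposite strand, and these and near-identical paralogs are uncertain. Alternatives changed the scaling, pseudocount, filter, trend and test, and left out each library.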

Additional observations from a re-analysis of the deposited data

How the results depend on the processing

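Eef1a2, Eif4ebp1 and Eif4ebp3 passed under each alternative that kept all 4 libraries and tested them; Eef1a2 could not be tested with FPKM of at least 1 in all 4 libraries. All 8 called members kept their direction under each alternative in which they were tested. The counts of members higher and lower were 20 and 2 with FPKM as deposited, 12 and 2 with the sum of FPKM after removing genes above 1% as the scale, 3 and 2 under quantile normalization, 2 and 5 with a pseudocount of 0.1, 1 and 2 without the filter, 3 and 9 with FPKM of at least 1 in all 4 libraries, 3 and 2 without the intensity trend, and 2 and 7 by voom. The 3 higher under quantile normalization were Eef1a2, Eif1b and Eif4a1. The median of the members was 0.70, 0.42 and 0.26 under the 3 other scalings. Leaving out a library gave 0 to 12 higher and 0 to 18 lower members, and medians of -0.29 to -0.13. For all genes the counts were 3681 and 427, 2537 and 554, 884 and 787, 1306 and 814, 245 and 249, 555 and 1040, 1210 and 843, and 1056 and 1005 in the same order, and 0 to 2170 and 0 to 3405 with a library left out. Where 1 sample of a group remained, its spread was taken from the other group.

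Of the 63 members, 23 had another sign with FPKM as deposited, 17 with the FPKM sum as the scale and 13 under quantile normalization. Values follow only for the named genes among them. With FPKM as deposited, with the FPKM sum as the scale and under quantile normalization, Eef2 was at 0.84, 0.56 and 0.87, Eif4a2 at 0.61, 0.33 and 0.26, Eif4b at 0.84, 0.56 and 0.40, Eif4ebp2 at 0.69, 0.41 and 0.0033, and Eif5a at 0.42, 0.14 and 0.28. Eif4g1 was at 0.34 and 0.068 under the first pair, Eef1b2 at 0.0047 with FPKM as deposited and Eef1a1 at 2.14 under quantile normalization. Leaving out a library gave -0.37 to 0.079 for Eef2, where the last is without normal 2, -0.26 to 0.035 for Eif4b, where the last is without tumour 2, and -0.58 to 0.23 for Eif4ebp2, where the last is without tumour 1. The scalings differ by construction in the level taken as equal between libraries. Depth limits the genes that rest on few fragments, Eif3j1, Eif4e3 and Eif5a2 among the members. No paired analysis was possible because the labels carry no numbers shared between the groups.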
